A study of Micropterus salmoides with 68 samples.

Results

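The gene acod1 encodes aconitate decarboxylase 1, the enzyme that makes itaconate, and its transcript was followed in spleen and liver of largemouth bass (Micropterus salmoides) sampled around a live transport. It is 1 of the 18666 genes quantified, and it was selected on its measured levels, so those levels are described here without a test. The files give acod1 a value in all 68 RNA-seq libraries, 34 per tissue, which form 18 groups of 3 or 4 libraries. Tissues came from single fish, and 125 fish shared a box holding 30 L of water for a transport of 4 h. In each tissue the groups were 4 fish as transport ended, 4 fish that had recovered for 1 day, fish labelled abnormal on day 3 (3), day 4 (4) and day 5 (4), labelled normal on day 3 (3), day 4 (4) and day 5 (4), and 4 fish taken before transport, directly after netting. The recovering fish were not fed and were kept in a room at 28 °C. The labels do not say what made a fish normal or abnormal, and no untransported fish were sampled on the later days, so time and transport cannot be told apart. Nothing in the labels places the fish of a group in separate boxes, so the spread within a group is the spread between these fish.

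In mammals, ACOD1 sits in the mitochondria of activated macrophages and removes a carboxyl group from cis-aconitate, an intermediate of the TCA cycle. The itaconate it makes inhibits succinate dehydrogenase, modifies KEAP1 and so frees the transcription factor NRF2, and is used against bacteria inside phagosomes. Its gene is switched on by Toll-like receptor, interferon and cytokine signals, and in zebrafish larvae the orthologue marks macrophages that respond to infection. The spleen of bony fish is rich in macrophages and blood cells, whereas the liver is mostly hepatocytes.

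The spleens of normal fish held far more acod1 transcript than any other group of the study. Levels are in TPM, a measure of transcript abundance scaled for transcript length and for the library total. In spleen, acod1 stood at 1.01, 7.41 and 0.32 TPM in the 3 abnormal fish of day 3, against 35.77, 38.20 and 54.35 TPM in the 3 normal fish of that day. On day 4 the 4 abnormal spleens had 0.12, 0.43, 0.31 and 0.12 TPM, and the 4 normal spleens had 74.83, 33.64, 45.29 and 268.99 TPM. On day 5 the abnormal spleens had 0.48, 0.47, 5.85 and 0.50 TPM, and the normal spleens had 70.75, 60.43, 35.92 and 57.10 TPM. The values of abnormal and normal fish did not overlap on any of the 3 days. The highest abnormal value of a day was lower than the lowest normal value of that day by 4.83-fold on day 3, 78.2-fold on day 4 and 6.14-fold on day 5.

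Within each condition the fish were not uniform. Of the 11 abnormal spleens, 3 reached 1 TPM, and 2 of these, at 7.41 and 5.85 TPM, stood well above the other 9. Among the 11 normal spleens, 1 fish of day 4 had 268.99 TPM, and the other 10 lay between 33.64 and 74.83 TPM. Group means were 2.91 ± 3.91 TPM (SD, n = 3) in abnormal and 42.8 ± 10.1 TPM (SD, n = 3) in normal spleens of day 3. They were 0.245 ± 0.152 TPM in abnormal and 106 ± 110 TPM in normal spleens of day 4 (SD, n = 4 each), and 1.83 ± 2.68 TPM in abnormal and 56.1 ± 14.6 TPM in normal spleens of day 5 (SD, n = 4 each). By rank among the 18666 genes of its library, acod1 lay between 7262nd and 17831st in the abnormal spleens and between 482nd and 3279th in the normal spleens.

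Earlier in the time course acod1 was near the floor in most spleens and higher in single fish. Before transport the 4 spleens had 0.51, 0.26, 0.40 and 0.28 TPM. At the end of transport they had 0.34, 1.14, 0.23 and 6.55 TPM, so 3 of the 4 were at 1.14 TPM or below and 1 was high. After 1 day of recovery the values were 2.31, 0.50, 14.28 and 2.09 TPM, and 3 of these 4 fish lay above every fish sampled before transport. Even the highest of these 12 early spleens, at 14.28 TPM, was below the lowest normal spleen of days 3 to 5, at 33.64 TPM. On the scale of log2(TPM + 1), the group mean was higher by 0.74 at the end of transport and by 1.53 after 1 day than before transport. Without the single high fish these differences were 0.16 and 0.87.

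**Figure D1:**
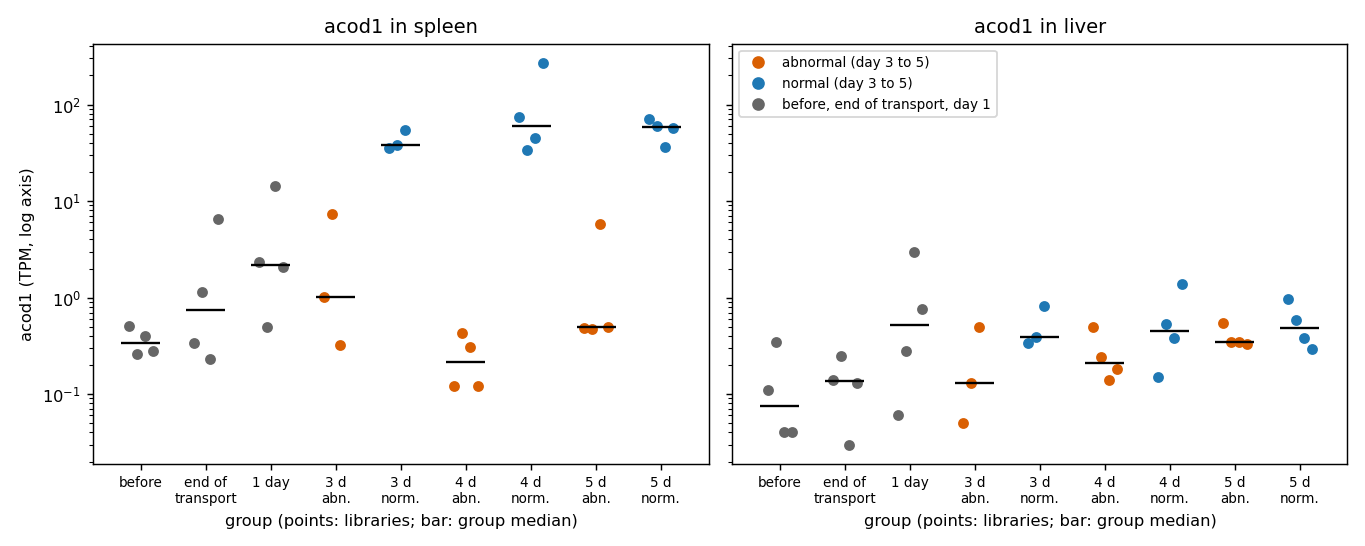
Level of acod1 in TPM on a log axis in each of the 68 libraries, by group, for spleen and liver, with 1 point per fish and a bar at the group median. The normal spleens of days 3 to 5 lie between 33.64 and 268.99 TPM, above all other spleens, whose highest value is 14.28 TPM, and all livers lie at or below 2.94 TPM.

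The liver held little acod1 transcript in any condition. Only 2 of the 34 livers reached 1 TPM, 1 fish of day 1 at 2.94 TPM and 1 normal fish of day 4 at 1.37 TPM. Before transport the livers had 0.11, 0.35, 0.04 and 0.04 TPM. At the end of transport they had 0.14, 0.25, 0.03 and 0.13 TPM, and after 1 day they had 0.06, 0.28, 2.94 and 0.76 TPM. These 3 groups overlapped. On day 3 the abnormal livers had 0.05, 0.13 and 0.49 TPM and the normal livers 0.34, 0.39 and 0.81 TPM. On day 4 the abnormal livers had 0.50, 0.24, 0.14 and 0.18 TPM and the normal livers 0.15, 0.53, 0.38 and 1.37 TPM. On day 5 the abnormal livers had 0.55, 0.35, 0.35 and 0.33 TPM and the normal livers 0.96, 0.59, 0.38 and 0.29 TPM. Abnormal and normal livers overlapped on every day. TPM keeps no record of sequencing depth, so the counting error of values this low is unknown.

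The abnormal minus normal difference in log2(TPM + 1) was -3.93, -5.93 and -4.67 in spleen on days 3, 4 and 5, where the pooled SD within groups was 1.02, 0.93 and 0.83. In liver the same differences were -0.31, -0.30 and -0.14. Averaged over the 3 days the spleen difference was -4.85, the 11th lowest of 17998 genes tested in that tissue, whose median difference was -0.51. Adding 1 TPM before the logarithm shrinks differences of low genes, and with 0.1 TPM added in its place the spleen difference was -6.12 and the liver difference -0.72. The libraries also differed in scale, with median-of-ratios factors of 0.378 to 1.05 in abnormal and 1.13 to 1.39 in normal spleens. The factor of 0.378 was that of 1 abnormal spleen of day 4, and the next lowest was 0.650. The same spleen sets the lowest abnormal value of several genes named below, among them suclg2, sdhb and me1. After division by these factors acod1 was 0.117 to 10.6 in abnormal and 27.5 to 221 in normal spleens, still without overlap.

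Ordered by median level, the normal spleens of day 4 (60.1 TPM), day 5 (58.8 TPM) and day 3 (38.2 TPM) headed the 18 groups, with ranges that overlapped each other. Next came the spleens of day 1 at 2.20 TPM, and this step was the only place in the order where neighbouring groups did not overlap. The abnormal spleens of day 3 followed at 1.01 TPM, the spleens at the end of transport at 0.74 TPM and the livers of day 1 at 0.52 TPM. The abnormal spleens of day 5 at 0.49 TPM stood beside the normal livers of day 5 at 0.485 TPM. The other 9 groups had medians of 0.455 TPM or less, and the livers before transport were lowest at 0.075 TPM.

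Whether high spleens and high livers came from the same fish could be looked at only through the replicate numbers, which the labels do not tie to a fish across tissues. In 4 of the 9 groups the same number carried the highest acod1 of both tissues, namely day 1 and the normal groups of days 3, 4 and 5. Over all genes, 23 of 34 livers correlated best with the same-numbered spleen of their group. With groups of 3 or 4 fish, chance alone would match about 1 in 3 or 4 in either count. The median r of deviations from the group mean was 0.23 for the same number and -0.08 for other numbers. Deviations cancel out within a group, so a higher r for the same number pulls that for other numbers down.

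The tissues matched their labels by hepatocyte markers, whose sum was at least 88992 TPM in every liver and at most 4978 TPM in any spleen. Cell markers also differed between abnormal and normal spleens. Over the 11 normal spleens alone, correlations with acod1 ran from -0.59 (slc40a1) to 0.49 (hmox1a) among the macrophage markers. Among the neutrophil markers they ran from -0.48 (mmp9) to 0.32 (csf3r). Over the other 23 spleens the ranges were -0.49 (lgmn) to 0.35 (spi1b) for macrophage and -0.07 (padi2) to 0.81 (nccrp1) for neutrophil markers. Over all 34 spleens they were -0.70 (timd4) to 0.83 (marco) and 0.40 (mmp9) to 0.86 (nccrp1). Bulk tissue was sequenced, so fewer cells of a type and less RNA per cell cannot be told apart. Of 11 macrophage markers tested, 9 fell and 1, timd4, rose in abnormal against normal spleens, and all 8 neutrophil markers fell (limma on log2(TPM + 1), adjusted p below 0.05), where 54.2% of all genes were lower and 7.75% higher. After rescaling of the libraries by median of ratios, 8 macrophage and 7 neutrophil markers fell, where 28.4% of all genes were lower. The scavenger receptor gene marco, named after its values were seen, had the lowest difference of the macrophage list. It had 17.9 to 92.0 TPM in abnormal and 222 to 440 TPM in normal spleens, a difference of -2.53 ± 0.23 on the log2 scale (SE, limma adjusted p = 1.82e-10). The macrophage receptor gene csf1rb had 4.93 to 32.95 TPM in abnormal and 31.12 to 76.16 TPM in normal spleens, a difference of -1.45 ± 0.24 (limma adjusted p = 7.50e-06). The matrix metalloprotease gene mmp9, made by neutrophils, fell by 2.05 ± 0.52 (limma adjusted p = 0.00115), though its values overlapped at 5.79 to 356 TPM in abnormal and 55.6 to 709 TPM in normal spleens. In the same comparison, 8 of 8 erythroid and 5 of 6 thrombocyte markers rose, 3 of 5 lymphocyte markers rose and 2 fell, and 1 of 14 hepatocyte markers fell. After rescaling, where 27.7% of all genes were higher, these counts were the same except that no lymphocyte marker fell. The summed level of the erythroid markers was 721 to 2188 TPM in abnormal and 61.5 to 571 TPM in normal spleens. The thrombocyte sum was 551 to 1428 TPM in abnormal and 77.2 to 298 TPM in normal spleens. In spleen no marker was at 0 in every library of a group.

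The acod1 level was also lower in abnormal spleens relative to the summed markers of either myeloid cell type. Since acod1 was selected on its levels, these ratios are a description and no test of cell mixture. The 11 macrophage markers summed to 743 to 3675 TPM in abnormal and 3850 to 5296 TPM in normal spleens, and the 8 neutrophil markers to 150.5 to 1187 TPM in abnormal and 864 to 2377 TPM in normal spleens. Much of the macrophage sum was c1qb, with 321 to 1423 TPM in abnormal and 1507 to 2636 TPM in normal spleens. Another large part was hmox1a, with 216 to 1152 TPM in abnormal and 364 to 1500 TPM in normal spleens. As a percent of the macrophage sum, acod1 was 0.00507 to 0.320 in abnormal and 0.675 to 5.79 in normal spleens. As a percent of the neutrophil sum it was 0.0539 to 0.821 in abnormal and 1.93 to 26.1 in normal spleens. Neither pair of abnormal and normal ranges overlapped. After 1 day of recovery acod1 was 0.0297 to 1.68% of the macrophage sum, which overlapped the normal spleens. It was 0.0590 to 1.09% of the neutrophil sum, which did not.

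Before transport the macrophage sums were 3095, 6089, 2415 and 3208 TPM, and acod1 was 0.26 to 0.51 TPM. Of these 4 sums, 3 lay below every normal spleen of days 3 to 5 and 1 lay above them all. Single markers were not alike in this. The marker marco had 81.2 to 135 TPM before transport, below the 222 to 440 TPM of the normal spleens. For hmox1a the highest value before transport was 1847 TPM, above the 364 to 1500 TPM of the normal spleens. After 1 day the neutrophil sums were 1330, 847, 1307 and 1974 TPM, and acod1 was 0.50 to 14.28 TPM. Of these 4 sums, 3 lay within the normal range and 1 just below it. In the same order, mmp9 alone made up 714, 443, 617 and 1417 TPM of them, against 55.6 to 709 TPM in the normal spleens. The part of cell mixture in the acod1 levels was not tested. On days 3 to 5 the macrophage sums were 311 to 516 TPM in abnormal and 207 to 532 TPM in normal livers. The neutrophil sums were 69.0 to 137 TPM in abnormal and 42.2 to 120 TPM in normal livers. Both lay below the spleen sums of those days, though the lowest neutrophil sum of an abnormal spleen was close, at 150.5 TPM. Hepatocyte sums were 121334 to 167171 TPM in abnormal and 88992 to 134801 TPM in normal livers. TPM are shares of a library and do not count cells.

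**Figure D2:**
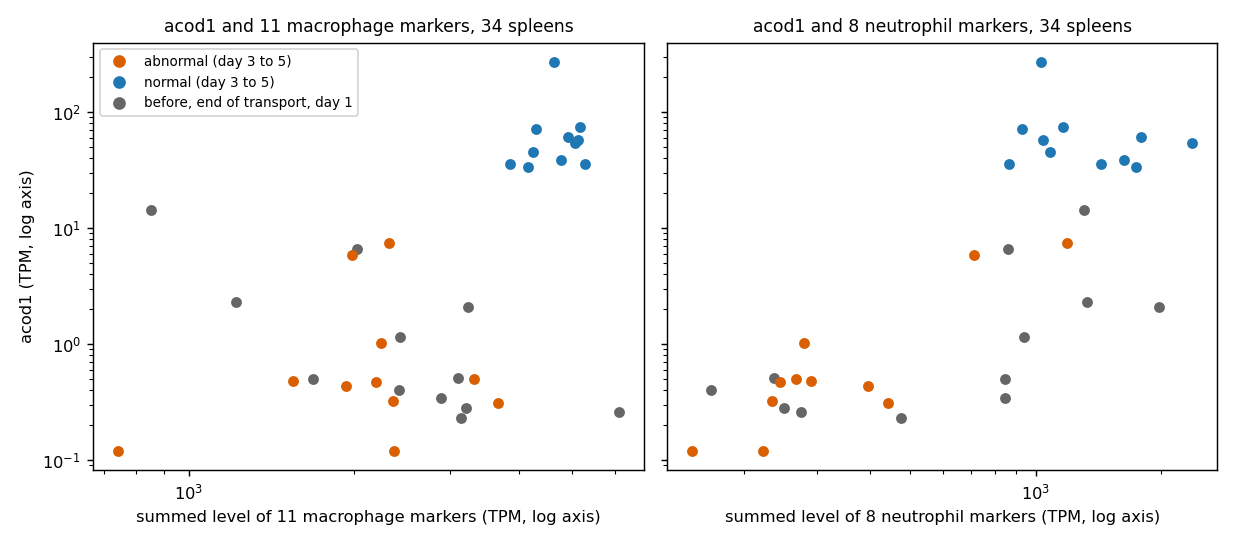
Level of acod1 against the summed level of 11 macrophage markers and of 8 neutrophil markers in the 34 spleens, in TPM on log axes, with 1 point per fish. The normal spleens, with macrophage sums of 3850 to 5296 TPM, have the highest acod1, and of the other spleens only 1, taken before transport, has a macrophage sum above 3850 TPM.

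Genes with the pattern closest to acod1 in spleen were found by Pearson correlation of log2(TPM + 1) over the 34 spleens, given as a description, since all genes of a library share its depth and its mix of cells. The 8 closest genes with a symbol were snx10b (r = 0.97), il13ra2 (0.96), slc2a6 (0.95), steap4 (0.95), cunh16orf89 (0.94), cd27 (0.94), stoml3b (0.94) and vmp1 (0.94). Among them, snx10b encodes a sorting nexin of endosomes, il13ra2 a receptor that binds interleukin 13 in mammals, slc2a6 a sugar transporter of the GLUT family and steap4 a metalloreductase. The gene cd27 encodes a receptor of the tumour necrosis factor receptor family and vmp1 a membrane protein needed for autophagy.

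These genes were picked for their correlation over all 34 spleens, so their values within subsets of them only show how the pattern is made up. The snx10b transcript had 3.90 to 49.48 TPM in abnormal and 165.78 to 581.48 TPM in normal spleens, with its highest value in the normal fish of day 4 that had the highest acod1. Its correlation with acod1 was 0.94 over the 11 normal spleens and 0.79 over the other 23. The il13ra2 transcript had 0.05 to 1.24 TPM in abnormal and 34.21 to 193.01 TPM in normal spleens, peaking in the same fish, with r of 0.75 over the normal and 0.69 over the other spleens. For steap4, with 0.55 to 39.51 TPM in abnormal and 52.97 to 331.26 TPM in normal spleens, r was 0.45 over the normal and 0.91 over the other 23. For cunh16orf89 it was 0.30 over the normal spleens and 0.64 over the others.

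In 4 spleens acod1 stood well above the rest of their group. These were 1 fish at the end of transport (6.55 TPM), 1 of day 1 (14.28 TPM), 1 abnormal fish of day 3 (7.41 TPM) and 1 abnormal fish of day 5 (5.85 TPM). In the same order they had 59.43, 37.20, 49.48 and 48.82 TPM of snx10b, the highest value of its group each time. Their steap4 values, 32.87, 82.12, 39.51 and 30.47 TPM, were also the highest of their groups. Their il13ra2 values were 18.51, 2.04, 1.24 and 0.89 TPM, again the highest of their groups, as a choice by correlation with acod1 favours. The neutrophil marker sums of these fish were 857, 1307, 1187 and 713 TPM, the highest of the group in the 2 abnormal fish but not in the fish at the end of transport or of day 1. The level of cebpb was 350.94, 326.18, 488.53 and 348.30 TPM, the highest of the group in the fish of day 1 and both abnormal fish, and the third of 4 at the end of transport. The part that cell mixture plays in these fish was not tested.

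**Figure D3:**
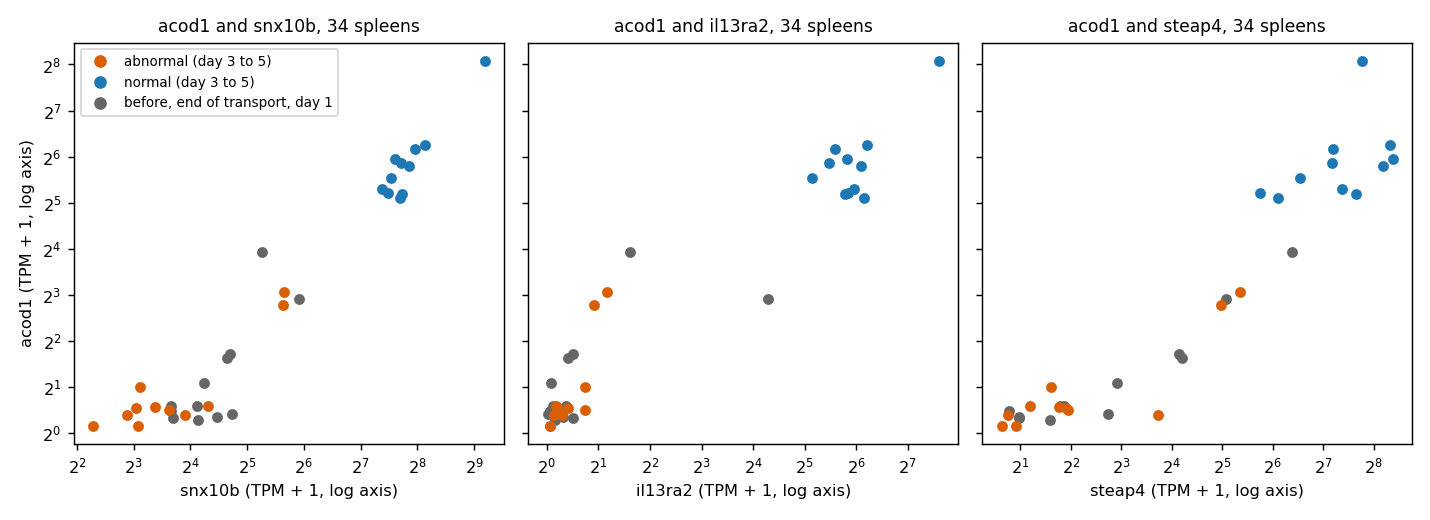
Levels of snx10b, il13ra2 and steap4, taken from the 8 genes closest to acod1 in spleen, plotted against acod1 in the same 34 spleens. Both axes show TPM + 1 on a log scale, with 1 point per fish. In snx10b the normal spleens lie between 165.78 and 581.48 TPM and the abnormal spleens between 3.90 and 49.48 TPM. The spleen at the end of transport with 6.55 TPM of acod1 lies between them at 59.43 TPM.

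In liver the same search rests on acod1 values near the floor. Its closest gene was slc35d2 (r = 0.79 over 34 livers), followed by glsb, gmds, mfsd4b, mindy3, atg101, psmb3 and alpk1. All 8 had their highest value in a liver of day 1, the group that holds the liver with 2.94 TPM of acod1. For mfsd4b this value was 32.69 TPM, against at most 5.03 TPM in the other groups, and for gmds 4.87 against 3.00 TPM. Of the 100 closest genes of each tissue, 6 were shared, 6% of each list. How many would be shared by chance was not worked out. These were golt1bb, cers5, mrpl20, dhdds, mogs and sdhb, and the last of them encodes the iron-sulfur subunit of succinate dehydrogenase, the enzyme that itaconate inhibits. For sdhb, r in spleen was 0.87 over all 34 spleens, 0.85 over the 11 normal spleens and 0.07 over the other 23.

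The genes around the itaconate step were taken from 5 lists with 89 genes in the table. The lists were drawn up by known roles, but with earlier results of these data known, so their counts are no independent test. Over all 5 lists, 74 of the 89 genes fell and 4 rose in abnormal against normal spleens (limma, adjusted p below 0.05). These calls compare abnormal with normal spleens of days 3 to 5. They do not tell which of the groups departed from the level before transport. With 54.2% of all 17998 genes lower and 7.75% higher, many genes outside the lists also fell. The median difference of the 89 genes was -1.10 on the log2 scale, against -0.51 for all genes. After rescaling by median of ratios, which brought the median of all genes to 0.01, 54 of the listed genes fell and 11 rose, where 28.4% of all genes were lower and 27.7% higher. In 44 of the 89 genes every abnormal spleen of days 3 to 5 was below every normal spleen, where 19.8% of all genes were so, and in 2 every abnormal spleen was above, where 1.63% of all genes were so. Leaving out single spleens gave 75 to 79 called genes.

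The TCA cycle, which supplies cis-aconitate, was lower in the abnormal spleens almost throughout. Of 23 genes, 22 fell and 1 rose, with a median difference of -1.28, and after rescaling 19 fell and 1 rose. The shares of all genes were 54.2% lower and 7.75% higher as deposited, and 28.4% and 27.7% after rescaling. The gene suclg2, a subunit of succinyl-CoA ligase, had 6.04, 15.96 and 22.22 TPM as lowest, median and highest value in abnormal spleens and 48.0, 105 and 124 TPM in normal spleens. Its difference was -2.55 ± 0.20 (SE, limma adjusted p = 9.49e-12), and the groups did not overlap. Citrate synthase, cs, which brings acetyl groups into the cycle, had 34.2 to 80.3 TPM in abnormal and 108 to 138 TPM in normal spleens and fell by 0.94 ± 0.15 (limma adjusted p = 4.91e-06). The subunits of succinate dehydrogenase followed, with 10.4 to 31.6 TPM of sdhb in abnormal and 55.1 to 81.3 TPM in normal spleens (-1.49 ± 0.14, limma adjusted p = 2.62e-10). The catalytic subunit sdha had 16.7 to 38.8 TPM in abnormal and 56.5 to 74.7 TPM in normal spleens (-1.18 ± 0.15, limma adjusted p = 6.98e-08). The exception was ogdhb, a 2-oxoglutarate dehydrogenase gene, with 4.61 to 11.5 TPM in abnormal and 0.88 to 8.33 TPM in normal spleens (0.74 ± 0.29, limma adjusted p = 0.0273).

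Genes for moving and degrading itaconate and related acids were mixed. Of 10 measured genes, 8 fell and 1 rose as deposited, but after rescaling 3 fell and 2 rose, shares close to the 28.4% and 27.7% of all genes. The median difference was -0.68. The mitochondrial citrate carrier slc25a1b rose, with 20.3 to 54.6 TPM in abnormal and 5.24 to 14.1 TPM in normal spleens and no overlap (1.64 ± 0.21, limma adjusted p = 1.39e-07). The oxoglutarate carrier slc25a11 had 16.7 to 24.8 TPM in abnormal and 37.5 to 54.1 TPM in normal spleens (-0.98 ± 0.11, limma adjusted p = 2.15e-08). The small GTPase gene rab32a, whose mammalian product helps deliver itaconate to vacuoles that hold bacteria, had 4.60 to 21.9 TPM in abnormal and 24.0 to 49.7 TPM in normal spleens (-1.32 ± 0.20, limma adjusted p = 1.41e-06).

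Genes of the KEAP1 and NRF2 response fell in part. Of 14 genes 10 fell and none rose, with a median of -0.99, and after rescaling 7 fell and 2 rose. Over all genes 54.2% were lower and 7.75% higher as deposited, and 28.4% lower and 27.7% higher after rescaling. Malic enzyme, me1, which makes NADPH, had 1.47, 4.07 and 6.40 TPM in abnormal and 26.7, 41.5 and 53.6 TPM in normal spleens as lowest, median and highest value. Its difference of -3.09 ± 0.20 (limma adjusted p = 1.98e-13) was the lowest of this list. The quinone reductase gene nqo1 was low throughout, at 0 to 1.15 TPM in abnormal and 1.05 to 7.85 TPM in normal spleens (-1.64 ± 0.20, limma adjusted p = 4.50e-08). The NRF2 gene nfe2l2a had 20.0 to 76.9 TPM in abnormal and 129 to 170 TPM in normal spleens (-1.46 ± 0.18, limma adjusted p = 4.53e-08). For keap1a the difference was -0.70 (limma adjusted p = 0.0127), and after rescaling it was -0.06 (limma adjusted p = 0.713). Heme oxygenase, hmox1a, a target of NRF2 and a marker of macrophages that clear red cells, overlapped widely, with 216 to 1152 TPM in abnormal and 364 to 1500 TPM in normal spleens (-0.14 ± 0.34, limma adjusted p = 0.734). Before transport the spleens had 3.85 to 7.43 TPM of me1, 0.25 to 0.90 of nqo1 and 69.6 to 93.1 of nfe2l2a, below the normal spleens. Those of keap1a (15.4 to 32.8 TPM) and hmox1a (205 to 1847 TPM) overlapped the normal spleens.

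**Figure D4:**
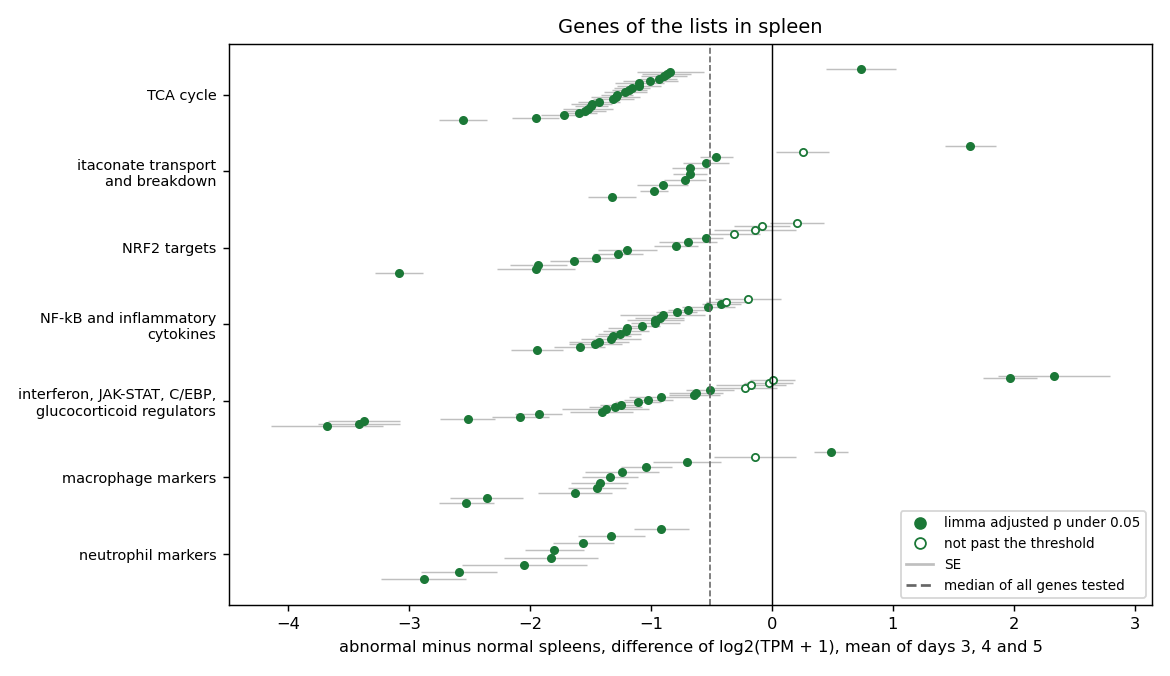
Difference of log2(TPM + 1) between abnormal and normal spleens, mean of days 3, 4 and 5, for each gene of 5 pathway lists and 2 marker lists, with bars of 1 SE and a dashed line at the median of all genes tested, -0.51. Filled points passed the limma threshold, and most TCA cycle genes and all neutrophil markers lie left of the dashed line.

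Inflammatory genes were mostly lower in the abnormal spleens. Of 20 NF-kB and cytokine genes, 18 fell and none rose, with a median of -1.02, and after rescaling 14 fell and 1 rose. Among all genes 54.2% were lower and 7.75% higher as deposited, and 28.4% lower and 27.7% higher after rescaling. The inhibitor gene nfkbiab, itself a target of NF-kB, had 25.6 to 140 TPM in abnormal and 175 to 405 TPM in normal spleens (-1.94 ± 0.21, limma adjusted p = 9.00e-09). The flagellin receptor gene tlr5a had 0.43 to 2.16 TPM in abnormal and 2.80 to 5.36 TPM in normal spleens (-1.31 ± 0.15, limma adjusted p = 1.22e-08). Cyclooxygenase, ptgs2b, had 0.14 to 1.51 TPM in abnormal and 1.85 to 9.31 TPM in normal spleens (-1.59 ± 0.21, limma adjusted p = 1.73e-07). The cytokine gene il1b overlapped, at 0.32 to 2.02 TPM in abnormal and 1.24 to 5.30 TPM in normal spleens (-0.38 ± 0.17, limma adjusted p = 0.0501). So did tnfa, at 0.52 to 4.49 TPM in abnormal and 1.13 to 17.6 TPM in normal spleens (-0.19 ± 0.27, limma adjusted p = 0.553). The fixed symbols il6, cxcl8 and mpeg1 matched no gene name and were not analysed here.

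The transcription factors and feedback genes of C/EBP, STAT3 and glucocorticoid signalling held the lowest differences of the 5 lists. Among 22 genes of this list 16 fell and 2 rose, with a median of -1.07, and after rescaling 11 fell and 5 rose. Of all genes, 54.2% were lower and 7.75% higher as deposited, and 28.4% lower and 27.7% higher after rescaling. The listed share that rose after rescaling was close to that of all genes. The gene cebpb encodes a C/EBP factor of myeloid cells and had 48.3, 109 and 489 TPM as lowest, median and highest value in abnormal spleens and 786, 1261 and 1606 TPM in normal spleens. Its difference was -3.38 ± 0.30 (limma adjusted p = 1.36e-10), with no overlap. The feedback gene socs3a, a target of STAT3, had 4.62 to 62.7 TPM in abnormal and 98.4 to 320 TPM in normal spleens (-3.41 ± 0.34, limma adjusted p = 1.23e-09). Both glucocorticoid-induced genes were lower, tsc22d3 with 48.6 to 305 TPM in abnormal and 366 to 539 TPM in normal spleens (-1.93 ± 0.19, limma adjusted p = 1.65e-09). For fkbp5, which had the lowest difference of the 5 lists and was named after its values were seen, the levels were 5.54 to 354 TPM in abnormal and 386 to 790 TPM in normal spleens (-3.68 ± 0.46, limma adjusted p = 9.20e-08).

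A pair of interferon and JAK genes went the other way. The interferon-induced antiviral gene rsad2 rose, with 42.1 to 395 TPM in abnormal and 6.13 to 59.6 TPM in normal spleens (2.33 ± 0.47, limma adjusted p = 8.81e-05), and so did the kinase gene jak2a (1.97 ± 0.22, limma adjusted p = 1.46e-08). Both were named as the members of the list that rose. For irf8, a factor of macrophages, the difference was -1.02 ± 0.20 (limma adjusted p = 7.03e-05), with 46.3 to 180 TPM in abnormal and 176 to 291 TPM in normal spleens. The interferon factor irf1b differed by -0.22 (limma adjusted p = 0.474) as deposited and by 0.44 (limma adjusted p = 0.0481) after rescaling. The glucocorticoid receptor nr3c1 differed by -0.03 (limma adjusted p = 0.917) as deposited and by 0.60 (limma adjusted p = 4.63e-05) after rescaling.

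Before transport genes of this list stood at other levels relative to acod1 than on days 3 to 5. The 4 spleens taken before transport had 342 to 485 TPM of cebpb, 89.4 to 141 TPM of socs3a and 509 to 654 TPM of tsc22d3 while acod1 was at 0.51 TPM or below. The levels of socs3a and tsc22d3 overlapped those of the normal spleens, and cebpb was below them. For tsc22d3 the median was 594 TPM before transport and 495 TPM in the normal spleens.

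**Figure D5:**
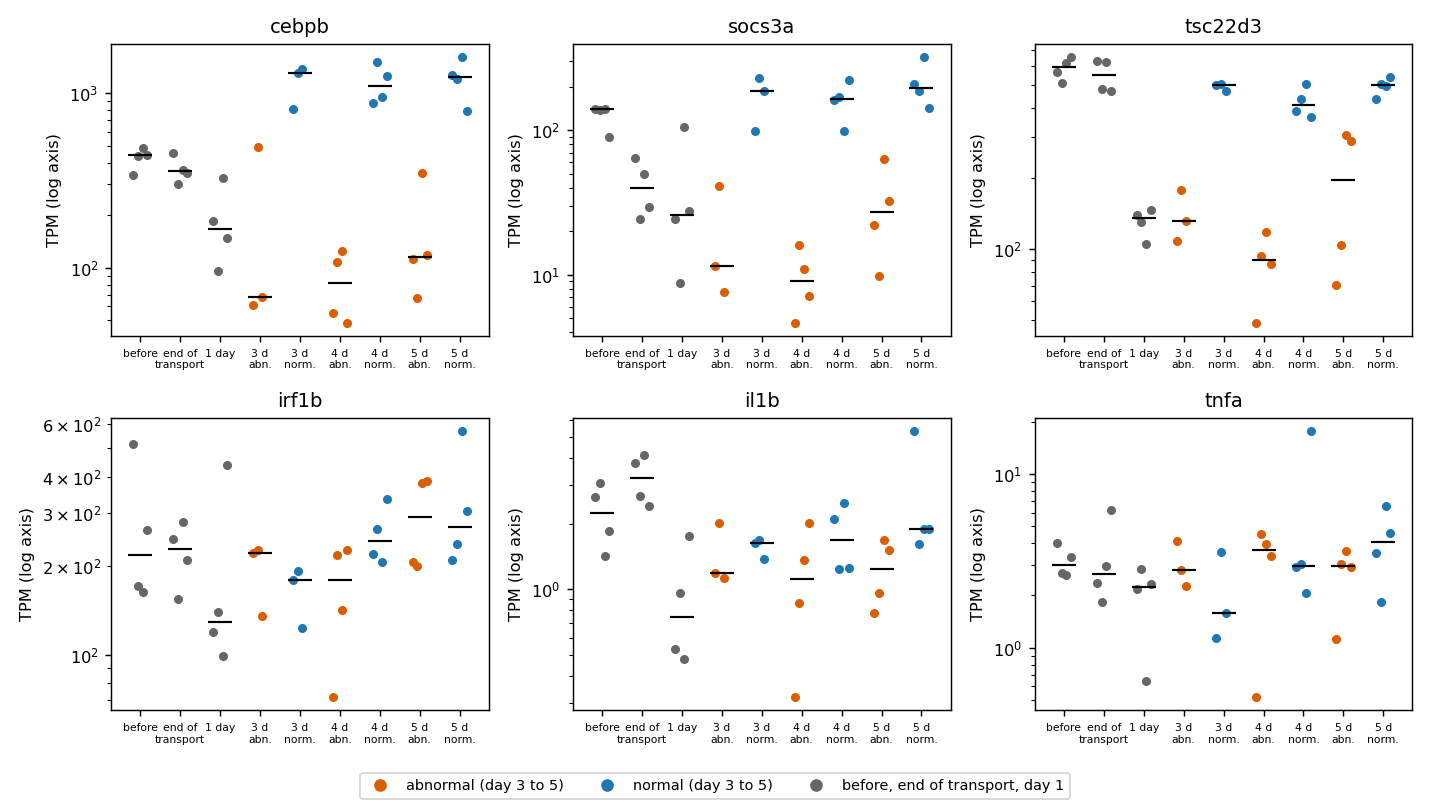
Levels of cebpb, socs3a, tsc22d3, irf1b, il1b and tnfa in the 34 spleens by group, in TPM on log axes, with 1 point per fish and a bar at the group median. In cebpb the normal spleens lie between 786 and 1606 TPM, above all other spleens, whereas in il1b and tnfa abnormal and normal spleens overlap.

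During the first day the number of listed genes that passed the test in spleen depended on the fit. At the end of transport 3 of 89 rose and 5 fell against before transport, where 5.23% of all genes were higher and 6.98% lower, shares close to those of the list. After rescaling 14 rose and 8 fell, where 12.1% of all genes were higher and 14.0% lower, and in a fit of the compared groups alone 32 of the 89 were called. Of the 23 TCA cycle genes 1 rose and 1 fell, and the one that rose was sdha (0.81 ± 0.24, limma adjusted p = 0.0237). The neutrophil marker mmp9 had 139 to 458 TPM at the end of transport and 5.09 to 12.5 TPM before it (4.83 ± 0.85, limma adjusted p = 0.000372). Hepatocyte markers also rose in these spleens, 11 of 14, with summed levels of 685 to 4978 TPM at the end of transport and 114 to 249 TPM before it, and their part in these results was not tested. The count of 8 called genes fell to 5, 4, 4 and 5 without the 1st, 2nd, 3rd or 4th library of the spleens taken before transport, and to 2, 4 and 4 without the 1st, 2nd or 3rd of those at the end of transport.

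After 1 day 7 listed genes rose and 14 fell in spleen, where 4.17% of all genes were higher and 15.9% lower, and the listed share that fell was close to that of all genes. After rescaling the median of all genes moved to -0.05 from -0.23, and 20 listed genes rose and 18 fell, where 16.3% of all genes were higher and 18.0% lower. In a fit of the compared groups alone 5 were called. The citrate carrier slc25a1b already had 11.7 to 77.2 TPM at this time, against 6.26 to 9.09 TPM before transport (1.68 ± 0.35, limma adjusted p = 0.00153). The factor cebpd fell to 20.9 to 73.0 TPM, against 397 to 496 TPM before transport (-3.34 ± 0.37, limma adjusted p = 1.39e-06). The glucocorticoid-induced tsc22d3 had 106 to 146 TPM at 1 day, against 509 to 654 TPM before transport (-2.17 ± 0.32, limma adjusted p = 5.02e-05). Of 8 neutrophil markers, 4 rose at this time and 4 did not pass the threshold, and after rescaling 5 rose. The marker mmp9 had 443 to 1417 TPM, whereas csf3r had 8.90 to 45.02 TPM, against 7.64 to 41.45 TPM before transport. The 1417 TPM came from the 4th library of day 1, whose median-of-ratios factor was 1.88, against 0.604 to 0.826 in the others. Without the 1st or the 4th library taken before transport the count of 21 called genes was 13, and without the 4th of day 1 it was 36.

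In liver, where acod1 was near the floor, the listed genes moved in both directions. Of 84 genes tested, 17 rose and 31 fell in abnormal against normal livers, where 29.1% of all 15430 genes were higher and 21.3% lower. After rescaling 17 rose and 37 fell, where 29.0% were higher and 30.0% lower. The feedback gene socs3a had 3.51 to 10.9 TPM in abnormal and 21.3 to 125 TPM in normal livers (-3.44 ± 0.34, limma adjusted p = 1.66e-09), and cebpb had 73.1 to 343 TPM in abnormal and 372 to 644 TPM in normal livers (-1.76 ± 0.28, limma adjusted p = 4.76e-06). Both genes were lower in abnormal livers as they were in spleen, while irf1b rose in liver, with 7.82 to 56.0 TPM in abnormal and 4.01 to 10.95 TPM in normal livers (1.42 ± 0.24, limma adjusted p = 1.52e-05). In liver too, 8 of 8 erythroid markers rose in abnormal fish, and 4 of 10 macrophage markers fell and 2 rose. Differences between tissues were not tested.

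At the end of transport 5 listed genes rose and 9 fell in liver, where 2.96% of all genes were higher and 9.27% lower, and after 1 day 11 rose and 14 fell, where 9.99% were higher and 17.3% lower. After rescaling 8 rose and 4 fell at the end of transport, where 9.7% of all genes were higher and 7.96% lower, and 21 rose and 12 fell after 1 day, where 18.7% were higher and 17.0% lower. In fits of the compared groups alone 3 and 1 of the 84 were called. The oxoglutarate carrier slc25a11 had 35.9 to 75.9 TPM at the end of transport, against 14.6 to 24.6 TPM before it (1.51 ± 0.27, limma adjusted p = 0.000528). The count of 14 called genes at the end of transport was 8 or 7 without the 3rd or 4th library taken before transport and 4 without the 2nd or the 4th of those at the end of transport. The count of 25 after 1 day was 10 without the 3rd library of day 1, the one with 2.94 TPM of acod1, and without it the acod1 difference was 0.24 in place of 0.63.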

How the data were processed

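RNA was measured by RNA-seq in 68 libraries of single-fish tissues, 34 per tissue. Per the labels' protocols, TRIzol was used for extraction, and NEBNext kits for ribosomal RNA depletion and for directional libraries. The submitters' processing notes name fastp 0.23.2, a read trimmer, and Salmon 1.10.0, a quantifier. Which genome build and which annotation were used is not given in the sources used here. The values the authors deposited are TPM per gene for 18666 genes, with sums of 995833 to 999254 per library. Every listed gene reaches 1 TPM in 3 or more of the 68 libraries. TPM keeps no depth, so depth is unknown and no interval for counting error is given.

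Groups were taken from the labels. Each tissue was fitted with limma 3.58.1 in R 4.3.3 on log2(TPM + 1) over its 9 groups (empirical Bayes with trend, 25 residual degrees of freedom, prior ones 4.80 in liver and 4.89 in spleen). A gene was tested in a tissue if 3 or more of its libraries reached 1 TPM, which left 15430 genes for liver and 17998 for spleen, with two-sided p adjusted by Benjamini-Hochberg over all of them and a threshold of 0.05. "Rose" and "fell" mean past that threshold. The fit was run on simulated data with independent noise for each gene and no shift in library scale. That run does not bear on calls where many genes differ together, as between abnormal and normal spleens. Rescaling divides each library by its median ratio to the tissue's geometric mean. Levels of acod1 are described and not tested.

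The gene, the 5 pathway lists and the 6 marker lists were chosen with earlier results of these data known. Genes were matched by symbol with paralogue suffixes. Named were, per comparison and pathway list, up to 3 called genes with the smallest p, the 8 genes per tissue closest to acod1, and a set of regulators, TCA cycle and marker genes named whatever their values. Marker genes marco and timd4, the members that rose and fkbp5 were added to these after their values were seen. A gene of the TCA cycle list that the rule selects is counted but not reported by name here. Gene names were compared with a RefSeq gene table, where 18657 of 18666 were found. Same-numbered libraries of compared groups had correlations of deviations from the group mean between -0.188 and 0.215, so the numbers were not taken as pairs.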

Additional observations from a re-analysis of the deposited data

Results flagged for a closer look

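The levels of acod1 in both tissues and the macrophage and neutrophil marker sums in spleen were examined in groups of 4 libraries. In 5 of 28 such sets of values, 1 library stood far from the rest of its group by Dixon's criterion. For independent, normally distributed values, chance meets this criterion in about 1 in 20 sets. All 5 values were the highest of their set, and 1 library was listed more than once, so the count cannot be weighed against that rate. In spleen at the end of transport, the 4th library had 6.55 TPM of acod1 and the other 3 had 0.23 to 1.14 TPM. In spleen after 1 day, the 3rd library had 14.28 TPM and the other 3 had 0.50 to 2.31 TPM. In abnormal spleens of day 5, the 3rd library had 5.85 TPM and the other 3 had 0.47 to 0.50 TPM. The same library had a neutrophil marker sum of 712.56 TPM, where the other 3 had 243.68 to 289.18 TPM. In abnormal livers of day 5, the 1st library had 0.55 TPM of acod1 and the other 3 had 0.33 to 0.35 TPM, all below 1 TPM.
The gene was selected on its levels, so these acod1 values are a description and no test of any fish.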

How the results depend on the processing

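The acod1 differences and the counts of called pathway genes were recomputed with other pseudocounts (0.1 and 0.5), filters, a rescaling, medians, fits of the compared groups alone and single libraries left out, and none of the acod1 differences past 0.1 in size changed sign. With a pseudocount of 0.1 the acod1 difference was 1.61 in liver after 1 day (0.63 before), and for abnormal against normal -0.72 in liver (-0.25) and -6.12 in spleen (-4.85). The count of called pathway genes at the end of transport in liver, 14, was 9 with a filter of 5 TPM and 3 with the compared groups alone. The liver count after 1 day, 25, was 1 with the compared groups alone. The spleen count at the end of transport, 8, was 22 after rescaling and 32 with the compared groups alone, and after 1 day, 21, it was 38 and 5. The cause of these shifts was not tested.

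Without single libraries the acod1 difference ran, in liver, from -0.04 to 0.09 at the end of transport, from 0.24 to 0.88 after 1 day and from -0.30 to -0.18 for abnormal against normal. In spleen it ran from 0.16 to 1.04, from 0.87 to 1.99 and from -5.11 to -4.64. Pathway counts ran from 4 to 18, 10 to 30 and 46 to 49 in liver, and from 2 to 7, 13 to 36 and 75 to 79 in spleen.

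With the replicate number as a block, the counts of called pathway genes were 14, 26 and 48 in liver and 10, 22 and 78 in spleen.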
